A study of Mus musculus with 80 samples.

Results

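Mouse embryonic stem (ES) cells that lack SALL4 were given wild-type SALL4A back, and their RNA was compared with that of the cells without it. The pair comprised 1 library from Sall4 KO cells (Sall4 delta/-, a C57BL/6J background per the labels) transfected with wild-type SALL4A, called KO plus wild type, and 1 library from Sall4 KO cells of the same labelled background, called Sall4 KO replicate 1. The members were genes whose symbol was listed in both expression tables and whose scaled value was 5 or more in at least 1 of the 2 libraries. These were 8399 of 21028 symbols listed in both tables and of 35668 listed in any of the 11 tables read. The series holds 80 samples, most of them maps of chromatin or of modified cytosine, and 69 samples were not analysed here. With 1 library a side, the comparison has no replicate check, and no p-value was drawn from the 2 libraries.

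The comparison asks which transcripts differ when SALL4A is supplied to cells without it. Around it, 9 other libraries gave context. A second library labelled Sall4 KO, replicate 2, carries a 129P2/OlaHsd background and the cell line name E14.1. Sall4 het cells (Sall4 flox/-, with a floxed allele left) and KO cells transfected with mutant SALL4A (KO plus mutant) each have a replicate 1 with the C57BL/6J label and a replicate 2 with the 129P2/OlaHsd label. Both libraries of each of these 3 groups cite 1 sample record in the labels, so the spread between them may be technical or may include strain. The set was completed by cells without Sall1 and Sall4 (DKO), wild-type cells for them, Sall1 het (Sall1 flox/-) and Sall1 KO (Sall1 delta/-) cells, each with 1 library of the C57BL/6J label. Neither the promoter of the SALL4A construct nor the number of clones is given in the sources used here, and the age of the cultures is not given either. A culture protocol in the labels, written for another line of the series, describes gelatin-coated dishes without feeder cells and medium with LIF.

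SALL4 is a zinc finger transcription factor of early embryos, ES cells and germ cells. It occurs as a long isoform, SALL4A, and a shorter one, and it can recruit the NuRD deacetylase complex. TET enzymes oxidise 5-methylcytosine stepwise to 5-hydroxymethylcytosine and beyond, and TDG excises the last products, and the title of the series links SALL4A to that sequence of steps. In ES cells SALL4 is known as a partner of OCT4 and NANOG and as a repressor of trophoblast genes.

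Sequence of 2 promoters is shown because the genes behind them stand for the 2 directions described below and both tables list them. Nanog encodes a homeodomain factor of the pluripotent state, and Id2 encodes an inhibitor of basic helix-loop-helix factors that BMP signalling induces. Each run holds 250 bases before to 50 bases after the gene's start in RefSeq on GRCm38.p6, which is another build than the mm9 of the submitters' notes. The Nanog window is chr6:122707239-122707538 on the plus strand, and the capitals mark the reverse complement (TTTGCAT) of ATGCAAA, a core of the motif read by OCT4. The Id2 window is chr12:25096043-25096342 on the minus strand, and the capitals mark GGCGCC, a GC-rich motif described in BMP-responsive elements, which is its own reverse complement.
Nanog: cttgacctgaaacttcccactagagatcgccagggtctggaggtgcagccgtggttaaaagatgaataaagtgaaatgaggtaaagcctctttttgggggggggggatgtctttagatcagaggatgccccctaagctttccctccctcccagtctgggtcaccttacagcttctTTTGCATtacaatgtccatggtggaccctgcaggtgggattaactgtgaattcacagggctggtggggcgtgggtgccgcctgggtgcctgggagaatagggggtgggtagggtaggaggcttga
Id2: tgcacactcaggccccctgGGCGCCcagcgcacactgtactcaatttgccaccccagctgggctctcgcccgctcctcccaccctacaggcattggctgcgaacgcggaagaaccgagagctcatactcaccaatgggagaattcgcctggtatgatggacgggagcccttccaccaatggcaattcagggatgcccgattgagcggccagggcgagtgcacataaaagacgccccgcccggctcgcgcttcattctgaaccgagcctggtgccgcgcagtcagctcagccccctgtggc
Searched on both strands, each window held 1 match, with no overlap between motifs. Of 27025 promoters of the same length, 4.59% held ATGCAAA and 11.96% held GGCGCC, so the matches are a description only.

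Sall4 RNA did not separate the labels. The library labelled KO plus wild type was at 97.4 FPKM (fragments per kilobase of transcript, scaled to depth, a level per length), while the library labelled Sall4 KO replicate 1 was at 358 and replicate 2 at 218 RPKM, the same measure over reads. The libraries labelled Sall4 het were at 196 and 64.2, KO plus mutant at 77.4 and 161, DKO at 109, its wild-type control at 17.6, Sall1 het at 18.6 and Sall1 KO at 17.8. The KO library thus carried more Sall4 signal than the library with added SALL4A, with a log2 ratio of -1.63, and both KO libraries exceeded both het libraries. The deleted exons are not separated in a gene-level value, so it does not check the deletion, and every name below stands for the library so labelled. In limma over 7 libraries the Sall4 change was -1.47 ± 0.85 on the log2 scale (SE, 1 library against 2), with an adjusted p of 0.514.

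The relatives of SALL4 and the TET enzymes were close between the sides. Sall1 was at 48.8 FPKM in KO plus wild type, 49.7 in Sall4 KO replicate 1 and 67.9 RPKM in replicate 2. Tet1 was at 15.6, 19.14 and 16.01 in the same order, and Tet2 at 3.64, 7.38 and 4.67. Tdg stood at 23.4, 28.02 and 25.0. The log2 ratios to replicate 1 were 0.21 for Sall1, -0.057 for Tet1, -0.66 for Tet2 and -0.025 for Tdg, none of them 2-fold. Sall2, Sall3 and Tet3 stayed under the minimum of 5 in both libraries.

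The tables were made on different gene models, and this moved with the comparison. The tables of Sall4 KO and Sall4 het replicate 1, called the longer tables, list many more entries than the shorter ones of DKO, its control, Sall1 het, Sall1 KO, KO plus mutant replicate 1 and KO plus wild type. Some abundant genes moved with the kind of table rather than with the labels. Gapdh was at 1430 FPKM in KO plus wild type and 1720 in KO plus mutant replicate 1, and between 3288 and 4277 in the 4 other shorter tables, against 220 and 223 in the 2 longer ones. Of the 8399 genes, 43 were listed at 0 in 1 kind of table and not in the other, all of them 2-fold apart, and were set aside, which left 8356. A further 508 (6.08%), called separated below, had all values in the 6 shorter tables at least 2-fold on 1 side of both longer ones, 131 higher and 377 lower in KO plus wild type. The 10 highest entries held 40.9% of the sum of values in KO plus wild type and 76.0% in Sall4 KO replicate 1. The part of gene models in any single difference was not tested.

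Of the 8356 genes, 708 (8.47%) were at least 2-fold higher in KO plus wild type than in Sall4 KO replicate 1 and 1160 (13.9%) at least 2-fold lower, 22.4% in all, on the log2(scaled FPKM + 1) scale, on which changes of low genes come out too small. On values as deposited, without scaling, the split was 491 higher and 1572 lower, and the median over all genes compared shifted from -0.019 to -0.24. Without the separated genes, 577 (7.35%) of 7848 were higher and 783 (9.98%) lower. Against both KO libraries at once, 363 (4.54%) of 7994 genes were 2-fold higher and 613 (7.67%) lower, and against replicate 2 alone, over its own genes at 5 or more, 500 were higher and 1006 lower. Of the 7994 genes of the pair listed for replicate 2, 470 (5.88%) were 2-fold higher and 878 (11%) lower than in replicate 2. Where the 2 tables gave a locus starting and ending within 100 bases of each other (4480 genes) 19.4% were 2-fold apart, and among the other 3876 genes 25.7%.

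Libraries of 1 label differed about as much. The 2 Sall4 KO libraries were 2-fold apart at 18.2% of 10815 genes, the 2 het libraries at 26.8% of 10896 and the 2 KO plus mutant libraries at 16.1% of 8264. Libraries whose tables share a gene model and a unit were closer. Sall4 KO and Sall4 het replicate 1 were 2-fold apart at 8.61% of 11328 genes, and KO plus wild type and KO plus mutant replicate 1 at 3.41% of 8084. The 22.4% of the pair therefore lies within the 16.1% to 26.8% seen between libraries of the same label, and counts of genes in the pair are read below beside replicate 2 of Sall4 KO and beside comparisons that share no library with the pair.

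**Figure D1:**
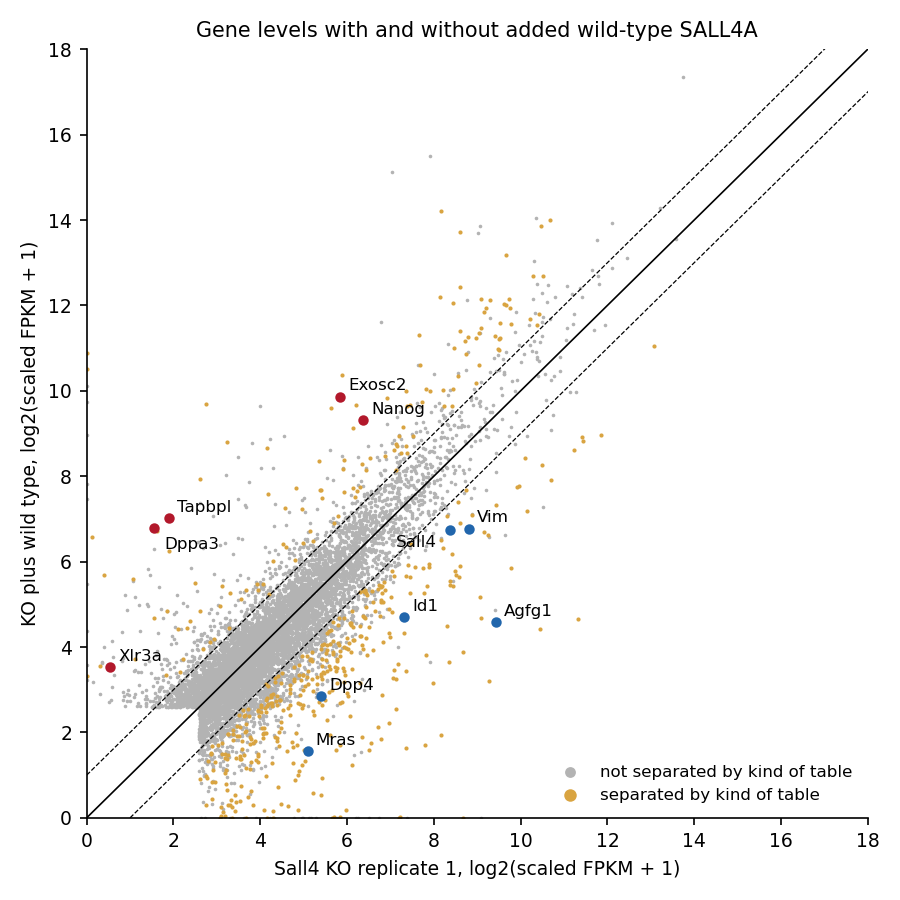
Level of each of 8356 genes in KO plus wild type (vertical) against Sall4 KO replicate 1 (horizontal), both as log2(scaled FPKM + 1), 1 library each; the solid line marks equal levels and the dashed lines 2-fold. Orange points are the 508 genes separated by kind of table, and named genes are red where higher and blue where lower in KO plus wild type; Dppa3 and Tapbpl lie far above the lines and Mras, Agfg1 and Id1 far below.

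The gene with the highest ratio by the naming rule was Dppa3 (Stella), which encodes a factor of germ cells and early embryos that protects 5-methylcytosine from TET3 in the zygote. It was at 101 FPKM in KO plus wild type against 2.11 in Sall4 KO replicate 1 and 3.58 RPKM in replicate 2. The het libraries were at 47.7 and 183 and the KO plus mutant libraries at 26.4 and 12.7. KO plus wild type thus lay between the 2 het libraries and above both mutant libraries, and both KO libraries lay below every other library of the 7. In the DKO, which also lacks Sall4, Dppa3 was at 109.5 against 58.4 in its control, with Sall1 het at 81.1 and Sall1 KO at 72.9, so the low level of the 2 KO libraries was not seen there. The log2 ratio was 5.23 to replicate 1 and 4.74 to replicate 2, and limma gave a change of 5.21 ± 0.91 (SE) with an adjusted p of 0.333. Both tables place the gene on chromosome 6, from 122576441 to 122580289 in that of KO plus wild type and from 122576427 to 122580290 in that of Sall4 KO replicate 1.

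The 11 other highest genes by the rule were Tapbpl, Lcmt2, Ripply3, Chrna1, Pbld1, Tyr, Slc7a14, Cd300a, Ppp1r16b, Cxcr2 and Exosc2, with log2 ratios from 5.12 down to 4.02. They share no textbook pathway. Tapbpl, which encodes an editor of peptides on MHC class I, was at 119 FPKM in KO plus wild type and at 2.96 and 4.56 in the KO libraries. It was at 5.96 and 18.2 in het and at 48.6 and 19.8 in KO plus mutant. Every Sall4 KO and Sall4 het value was thus below every value with added SALL4A. Sall1 het and Sall1 KO, without added SALL4A, were at 22.9 and 27.9, above the lower mutant value. DKO and its control were at 8.43 and 7.13. Lcmt2, which encodes an enzyme of tRNA wybutosine synthesis, stood at 403 against 14.3 and 24.7 in the KO libraries. Its het values were 27.3 and 84.5 and its mutant values 140 and 114. Exosc2, a subunit of the RNA exosome, was at 857 against 61.4 and 77.8 in KO. It was at 75.3 and 153 in het and 402 and 112 in KO plus mutant. Sall1 het and Sall1 KO were at 224 and 276, between the mutant values, and DKO and its control at 97.7 and 93.2. Slc7a14, a relative of cationic amino acid transporters, was at 51.6 against 1.79 and 0.714 in KO, 3.44 and 2.78 in het and 22.4 and 12.01 in KO plus mutant. For these genes KO plus wild type stood above het as well as above KO. The loci of Tapbpl, Lcmt2, Exosc2 and Slc7a14 differ between the tables of the pair, so their values rest on different gene models. Exosc2 runs from 31526256 to 31536827 in that of KO plus wild type and from 31526234 to 31659747 in that of Sall4 KO replicate 1. Lcmt2 runs from 120963027 to 120966434 and from 120954042 to 120982416. The part of this in the ratios was not tested. Of the 12 genes, 11 were higher in KO plus wild type than in both het libraries and 12 than in both mutant libraries. In 12 both mutant libraries were above both KO libraries. Over all 7777 genes not separated and listed in both het tables, 2521 were above both het libraries. The shares over all genes for the mutant counts were not computed. The 12 were picked for a high value in KO plus wild type and a low one in Sall4 KO replicate 1, so these counts are no test.

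Other genes of the 12 were also highest in KO plus wild type, while their het values varied. Ripply3, a transcriptional corepressor of pharyngeal development, was at 151 FPKM against 5.52 and 11.2 in KO. Chrna1, the muscle acetylcholine receptor alpha subunit, was at 71.3 against 2.09 and 2.99. Tyr, tyrosinase of melanin synthesis, was at 42.0 against 1.17 and 2.60. These 3 are genes of specialised tissues, and in each the mutant libraries lay between KO and KO plus wild type, at 58.2 and 50.0 for Ripply3, 27.1 and 15.8 for Chrna1 and 20.9 and 7.82 for Tyr. Cxcr2, a chemokine receptor, was at 213 against 13.3 and 17.7 in KO and 93.3 and 82.8 in KO plus mutant. Its het values, 23.04 and 7.41, lay on either side of KO. The log2 ratio of Sall4 het replicate 2 to Sall4 KO replicate 2 was -1.10. Further genes were named after their values were seen, because they were 2-fold higher than both KO libraries. Tnfsf10 (TRAIL, a death ligand) was at 13.7 against 0.344 and 0.368 in KO, 0.703 and 1.17 in het and 4.74 and 4.12 in KO plus mutant. Cyp2e1, a cytochrome P450, was at 27.8 against 1.83 and 0.525 in KO, 4.28 and 2.74 in het and 14.7 and 8.68 in KO plus mutant. For both genes the 4 labels did not overlap, in the order KO, het, KO plus mutant and KO plus wild type. The share of all genes with this order was not computed, so for genes picked this way it is a description only. Sall1 het and Sall1 KO, without added SALL4A, were at 13.15 and 19.02 for Cyp2e1, between the mutant values and above both. DKO and its control were at 7.54 and 6.01. For Tnfsf10 these 4 libraries were at 1.95, 2.84, 0.587 and 0.429, below both mutant values.

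**Figure D2:**
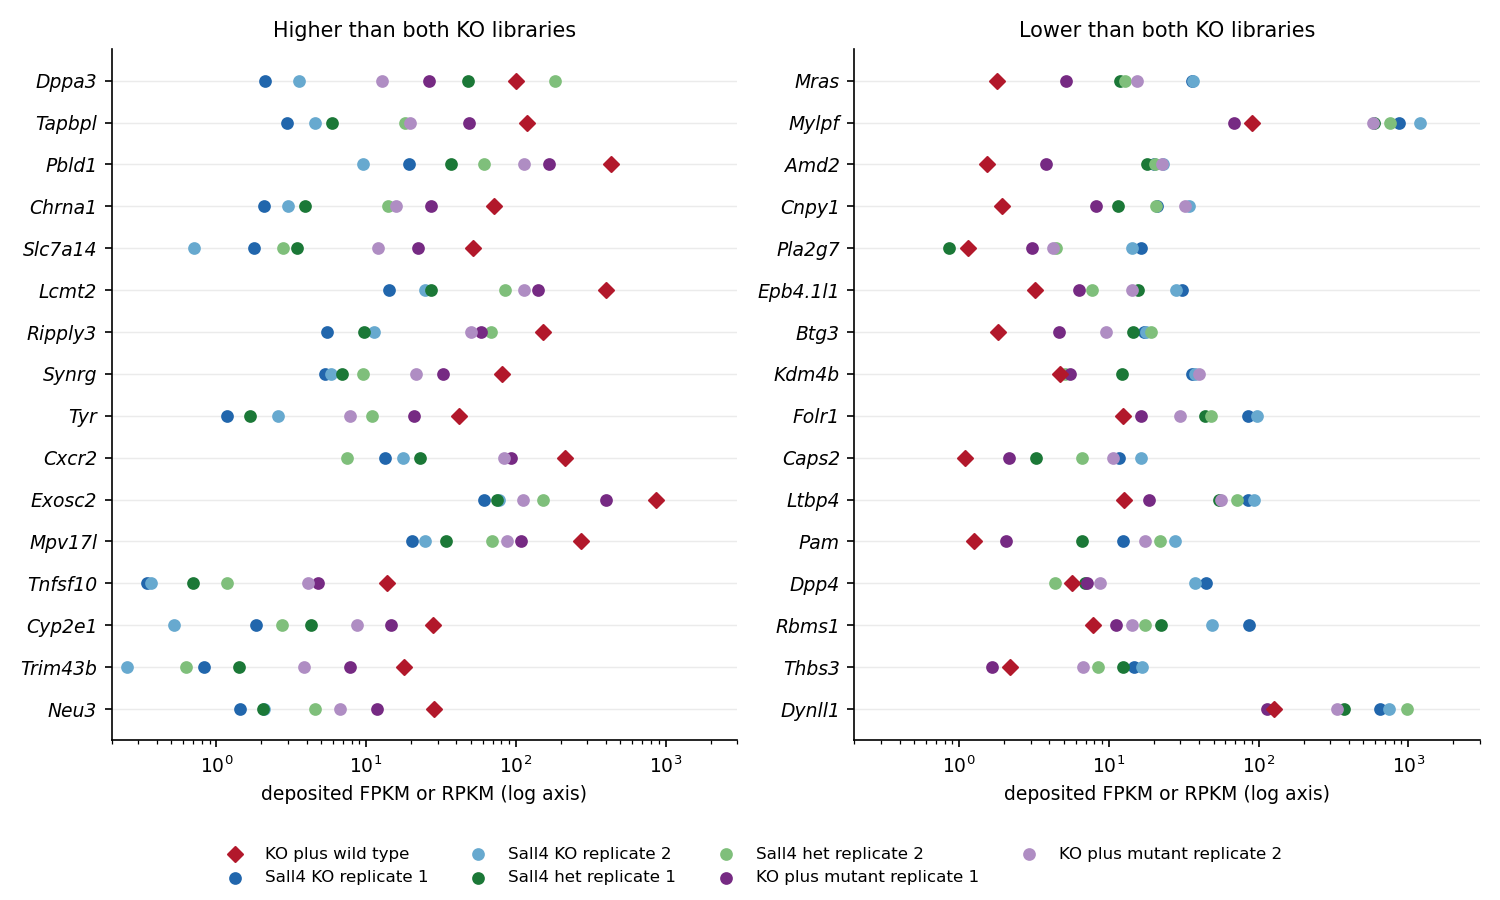
Deposited values of the 16 genes most above (left) and most below (right) both Sall4 KO libraries, 1 point a library, FPKM or RPKM on a log axis, with KO plus wild type as a diamond. On the left the diamond is the highest value in every row but that of Dppa3, where 1 het library is higher. On the right KO plus mutant replicate 1 lies near the diamond in most rows. Replicate 2 often lies nearer the KO values there, as for Mylpf and Kdm4b. Amd2 has different loci on chromosome 10 in KO plus wild type (from 40007263) and Sall4 KO replicate 1 (from 35428496).

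The lowest genes by the rule were of 2 kinds. Of the 12 lowest ratios by the rule, in Agfg1, Vps13a, Gbe1, Ppp1r10, Mras, Arid2, Ccdc136, Gipc2, Zfp618, Rbms1, Mast1 and Mylpf, 4 were also 2-fold lower against Sall4 KO replicate 2. In 9 of the 12 the deposited value of Sall4 KO replicate 1 was at least 2-fold above that of replicate 2. The 12 were picked by their ratio to Sall4 KO replicate 1, which favours genes high in that library alone. The same share over all genes was not computed, so the 9 are a description only. Agfg1, which encodes a protein of endocytic sorting, was at 21.2 FPKM in KO plus wild type, 749 in Sall4 KO replicate 1 and 35.9 RPKM in replicate 2, with het at 29.6 and 21.3 and KO plus mutant at 25.6 and 22.9. Here 1 library, Sall4 KO replicate 1, stood apart from the other 6, and the ratio of -4.84 became -0.43 against replicate 2. Vps13a, a lipid transfer protein, was at 1.77 against 85.3 and 2.94, and Gbe1, the glycogen branching enzyme, at 1.61 against 76.7 and 2.47. Their ratios of -4.77 and -4.70 became -0.30 and -0.20.

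The 4 that were low against both were Mras, Mylpf, Rbms1 and Ccdc136. Mras, a RAS-related GTPase, was at 1.80 FPKM in KO plus wild type against 35.9 and 36.5 in the KO libraries, with het at 11.9 and 12.8 and KO plus mutant at 5.17 and 15.5. KO was highest and KO plus wild type lowest, with no overlap between the labels of KO and any other. Mras was picked by its ratio to Sall4 KO replicate 1, which favours such an order. Here and for other genes with KO described as apart, the share over all genes was not computed, so these orders are a description only. The ratios of Mras were -3.53 and -3.49, and limma gave -3.26 ± 0.55 (SE). Rbms1, an RNA-binding protein, was at 7.80 against 86.7 and 49.0 in KO, 22.4 and 17.6 in het and 11.2 and 14.2 in KO plus mutant, again with KO apart from all others. Mylpf, a myosin light chain of fast muscle, was at 89.8 against 865 and 1199 in KO, but its mutant values were 68.9 in replicate 1 and 579 in replicate 2. For Mylpf the libraries of KO plus wild type and KO plus mutant replicate 1, which share a gene model, were low and the other 5 of the 7 high, from 579 to 1199, while DKO was at 373, its control at 178 and the Sall1 libraries at 61.2 and 66.8, and the part of the gene model in that was not tested.

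Among genes named after their values were seen, because they were 2-fold lower than both KO libraries, Dpp4 had het and add-back values close together. Dpp4, a surface peptidase, was at 5.70 FPKM in KO plus wild type, at 44.4 and 37.7 in KO, at 6.88 and 4.35 in het and at 7.13 and 8.74 in KO plus mutant. The het and add-back libraries spanned 4.35 to 8.74, below both KO values. Dpp4 was at 23.9 in DKO, 3.81 in its control, 1.81 in Sall1 het and 2.28 in Sall1 KO. The ratios were -2.55 and -2.25, and limma gave -2.50 ± 0.36 with an adjusted p of 0.325. Folr1, a folate receptor, was at 12.5 against 85.0 and 97.4 in KO, 44.2 and 48.0 in het and 16.5 and 29.8 in KO plus mutant. Pla2g7, a phospholipase that degrades platelet-activating factor, was at 1.15 against 16.5 and 14.2 in KO, 0.857 and 4.44 in het and 3.07 and 4.22 in KO plus mutant. In both, the KO libraries again lay above every other library. Rab11a, from the same count, showed another order. It encodes a GTPase of recycling endosomes and was at 25.1 in KO plus wild type and 25.7 in KO plus mutant replicate 1, between 112 and 184 in the other 5 of the 7 libraries, and between 30.4 and 49.0 in the DKO, its control and the Sall1 libraries.

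The members were also set against het cells. Of 568 higher genes not separated and listed in both het tables, 403 were above both het libraries, 106 (18.7%) of them at least 2-fold, 152 lay between the het values and 13 below both. Of 768 such lower genes, 591 were below both het libraries, 185 (24.1%) of them at least 2-fold, 149 lay between and 28 above both. Over all 7777 genes not separated and listed in both het tables, 2521 were above both het libraries, 2679 between and 2577 below both. Of these 7777, 1.62% were at least 2-fold above and 3.33% at least 2-fold below both. The higher and lower genes were picked by their value in this same KO plus wild type library, which favours values beyond het, so the counts are no test.

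Gene lists are given next by role, each by the number of members compared, the number 2-fold higher and lower in KO plus wild type, and the median log2 ratio, beside 8.47% higher, 13.9% lower and a median of -0.019 over all genes. Their medians against Sall4 KO replicate 2 follow, where 5.88% of all genes were higher, 11% lower and the median was -0.0028. Both comparisons share the KO plus wild type library. The lists do not count as tests. A member passed the minimum of 5 if it reached it in either library, so some passed only through the side where they are high. Compared were 11 of 30 primitive endoderm and 8 of 19 trophoblast members listed in both tables. For ID and BMP genes these were 9 of 23, and for mesenchymal genes 27 of 46.

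Pluripotency genes as a list sat near the level of all genes. Of 30 naive and core members, 4 were 2-fold higher (Dppa3, Nanog, Sox2 and Dppa5a, the last separated) and 3 lower (Tbx3, Sall4 and Tfcp2l1), with a median of 0.12 that is -0.11 on values as deposited, and 0.046 against replicate 2. Nanog was at 587 FPKM in KO plus wild type, 88.9 in Sall4 KO replicate 1 and 208 RPKM in replicate 2, with het at 138 and 397 and KO plus mutant at 386 and 233. It was highest in KO plus wild type, although the labels of KO and het overlapped. Its log2 ratio was 2.94 to replicate 1 and 1.80 to replicate 2, and limma gave 2.68 ± 0.79 (SE) with an adjusted p of 0.482. The Nanog locus on chromosome 6 ends at 122663796 in the table of KO plus wild type and at 122664651 in that of Sall4 KO replicate 1, so its value rests on different gene models. Tbx3, a factor of the naive state, was at 6.26 against 26.9 and 13.6, and Pou5f1 (OCT4) at 453 against 641 and 863.

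Markers fixed for cell types placed all 3 libraries with ES cells. The summed level of the 6 ES cell markers was 4637 in KO plus wild type, 2813 in Sall4 KO replicate 1 and 4470 in replicate 2, where Esrrb is not listed. The 7 fibroblast feeder markers summed to 10.1, 8.44 and 5.81, with Postn listed at 0 in Sall4 KO replicate 1. The 4 primitive endoderm markers summed to 2.14, 9.03 and 6.33, and the 4 trophoblast markers to 1.99, 12.1 and 6.86. No listed marker of either kind was at 0, and Hand1 made up most of the trophoblast sum in Sall4 KO replicate 1, at 7.33. The 3 neuroectoderm markers summed to 5.14, 4.75 and 4.32 and the 4 of two-cell-like cells to 29.8, 32.2 and 5.40. A marker that a table does not list adds nothing to its sum, as for Tcstv3, which only the table of KO plus wild type lists among these 3, at 9.82. Traces of lineage markers were thus higher in both KO libraries than in KO plus wild type for the primitive endoderm and trophoblast markers. Their part in the results below was not tested, and in bulk RNA fewer cells of a type and less RNA per cell cannot be told apart.

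Genes of extraembryonic lineages were mostly below Sall4 KO replicate 1 and less clearly below replicate 2. All 11 primitive endoderm members compared, of 30 listed in both tables, had a ratio below 0, 6 of them 2-fold. The median of -1.21 became -0.30, with none 2-fold lower, against replicate 2. Col4a1, a collagen of basement membrane, was at 5.07 FPKM against 19.3 and 11.7 in KO, 8.14 and 3.09 in het and 11.7 and 6.46 in KO plus mutant. Of the het and mutant values, that of KO plus mutant replicate 1 was at the level of the lower KO value and the others were below both. Krt18, a keratin of simple epithelia, was at 17.1 against 63.2 and 13.6, and Krt8, its partner, at 16.8 against 62.0 and 19.05, so only Sall4 KO replicate 1 stood apart. Of 8 trophoblast members 6 were 2-fold lower and 1 higher, with a median of -1.60 against replicate 1 and 0.15 against replicate 2. Hand1, a factor of trophoblast giant cells and heart, was at 0.559 against 7.33 and 3.23 in KO. It was at 2.77 and 1.25 in het and 1.26 and 0.364 in KO plus mutant. Hand1 passed the minimum only through Sall4 KO replicate 1. Phlda2, an imprinted gene of placental growth, was the higher one, at 34.9 against 11.4 and 14.7 in KO, 25.9 and 60.5 in het and 15.3 and 8.85 in KO plus mutant. For Phlda2 the labels of KO and mutant overlapped and both het values and KO plus wild type were above them.

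ID factors and BMP genes had 5 of 9 members 2-fold lower and none 2-fold higher, with a median of -1.30, and 3 of them were 2-fold lower against both KO libraries. Id1 was at 23.1 FPKM in KO plus wild type against 171 and 117 in KO, 54.1 and 88.1 in het and 19.5 and 22.9 in KO plus mutant. Id2, whose promoter is printed above, was at 7.65 against 49.1 and 41.2 in KO, 12.6 and 16.2 in het and 6.78 and 7.60 in KO plus mutant. Id1 and Id2, both inhibitors of basic helix-loop-helix factors, showed 1 order among these labels, with KO highest, het between and every library with added SALL4A lowest. Without added SALL4A, Id1 was at 24.9 in DKO, 6.34 in its control, 14.3 in Sall1 het and 12.2 in Sall1 KO. All but the DKO value were below every Id1 value with added SALL4A. Id2 was at 32.2, 13.7, 10.3 and 9.42 in the same order. The share of all genes with the order of Id1 and Id2 was not computed. The ratios to the KO libraries were -2.60 and -1.99 for Id1 and -2.32 and -1.999 for Id2, with limma changes of -2.25 ± 0.50 and -2.14 ± 0.34. Id3 was at 26.5 against 130 and 49.1 in KO, 68.9 and 65.2 in het and 14.6 and 14.7 in KO plus mutant. Bmp4, the ligand, was at 8.17 against 27.5 and 24.7 in KO and stayed below the het (19.3 and 20.6) and mutant (13.4 and 17.0) values too. The median of the list was -0.58 against replicate 2.

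Mesenchymal, contractile and matrix genes were mostly on the lower side. Of 27 compared, 20 were 2-fold lower and 1 higher, with a median of -1.44, and against replicate 2 the median was -0.75 with 8 of 23 members 2-fold lower. Vim, the intermediate filament vimentin, was at 99.9 FPKM against 484 and 265 in KO, 272 and 121 in het and 68.3 and 37.9 in KO plus mutant. KO and het overlapped for Vim, and the 3 libraries with added SALL4A were the 3 lowest, with ratios of -2.03 and -1.09. Cav1, a protein of caveolae, was at 1.07 against 14.3 and 6.50 in KO, 2.93 and 1.37 in het and 1.10 and 0.661 in KO plus mutant. Pmp22, a myelin and epithelial membrane protein, was at 3.15 against 21.9 and 7.35 in KO. Fbn1 and Cryab had larger ratios, -4.87 and -3.14, but are among the separated genes. Fbn1 was at 0.407 against 44.6 in Sall4 KO replicate 1 and 0.609 in replicate 2, and was 11.2 in Sall4 het replicate 1 against 0.249 in replicate 2. Thy1, a surface glycoprotein, was the 1 higher member, at 5.60 against 1.23 and 1.33 in KO, 7.54 and 5.50 in het and 4.03 and 2.36 in KO plus mutant.

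Germline genes were mostly on the higher side. Of 16 germline and meiosis members compared, 13 had a ratio above 0, 4 were 2-fold higher and 1 lower, with a median of 0.57 (0.33 against replicate 2), and the 4 and the 1 were 2-fold against both KO libraries. Usp26, an X-linked deubiquitinase gene of the testis, was at 11.6 FPKM in KO plus wild type against 0.572 and 0.295 in KO, 8.74 and 12.6 in het and 2.77 and 1.43 in KO plus mutant. KO plus wild type lay within the het range, and the mutant libraries lay between KO and het. The ratios were 3.16 and 3.46, and limma gave 3.22 ± 0.44 with an adjusted p of 0.325. Tex19.1, which protects germ cells against retrotransposons, was at 74.5 against 31.8 and 39.5 in KO, 47.2 and 153 in het and 40.7 and 38.9 in KO plus mutant. D1Pas1, an RNA helicase gene of the testis, was the lower one, at 5.17 against 18.2 and 17.9 in KO, 4.87 and 2.34 in het and 13.6 and 9.63 in KO plus mutant. In Tex19.1 and D1Pas1 the mutant values lay nearer KO than the KO plus wild type value did.

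All 5 Rhox and X-linked germline members compared were 2-fold higher, with a median of 1.71, of 24 listed in both tables, and 3 were 2-fold higher against both KO libraries. Xlr3a, a multicopy X-linked gene whose copies share sequence, was at 9.67 FPKM in KO plus wild type against 0.484 and 1.32 in KO, 10.1 and 42.3 in het and 2.39 and 0.964 in KO plus mutant. Xlr3b, its near copy, was at 6.81 against 0.544 and 0.399 in KO, 3.39 and 11.7 in het and 1.79 and 0.335 in KO plus mutant. For both, het and KO plus wild type were above KO and mutant, though reads may be split between the copies. Rhox1, a reproductive homeobox gene, was at 8.05 against 2.15 and 2.93, and Rhox9 at 21.0 against 8.03 and 15.9. The median was 1.46 against replicate 2. All 5 were above 5 in KO plus wild type, and the 24 listed in both tables include 19 under the minimum, so the 5 had to be high in at least 1 library.

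Interferon response and antigen presentation genes had 8 of 18 members 2-fold higher, none 2-fold lower and 17 above 0, with a median of 0.93 that was 0.86 against replicate 2. H2-T23, a nonclassical MHC class I gene, had the largest ratio, 6.93, at 759 against 6.26 and 14.2, and is among the separated genes. Isg15, a ubiquitin-like modifier, was at 15.6 FPKM against 5.46 and 7.75 in KO, 5.59 and 14.9 in het and 3.15 and 1.09 in KO plus mutant. Psmb8, a subunit of the immunoproteasome, was at 6.29 against 2.36 and 1.98 in KO, 5.18 and 11.8 in het and 1.84 and 0.481 in KO plus mutant. For Isg15 and Psmb8 the mutant libraries were below both KO libraries. Ifitm1, an antiviral membrane protein also expressed in germ cells, was at 1258 against 408 and 1113 in KO, 611 and 1522 in het and 1067 and 959 in KO plus mutant. Ifitm1 varied as much between libraries of 1 label as between labels.

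Cholesterol synthesis genes had 5 of 19 members 2-fold higher and none lower, with a median of 0.50, and 0.55 against replicate 2. Fdps, which makes farnesyl diphosphate, was at 131 FPKM against 34.4 and 52.0 in KO, 71.4 and 123 in het and 98.9 and 41.8 in KO plus mutant. Insig1, a sterol sensor, was at 50.1 against 17.6 and 23.8 in KO, 38.6 and 41.8 in het and 47.4 and 39.0 in KO plus mutant. For Insig1 every KO value lay below every other value. Idi1, an isomerase of the pathway, was at 36.9 against 14.5 and 19.2, and Fdft1, squalene synthase, at 35.3 against 14.1 and 16.9. In contrast, Ebp, a sterol isomerase, was at 11.7 against 24.3 and 27.2 as deposited, which is not 2-fold once the libraries are scaled. Fatty acid synthesis genes had 2 of 13 members 2-fold higher and none lower, with a median of 0.40 (0.38 against replicate 2). Scd1, the stearoyl-CoA desaturase, was at 15.8 against 5.67 and 4.43, and Fads1, another desaturase, at 19.12 against 8.75 and 12.3.

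**Figure D3:**
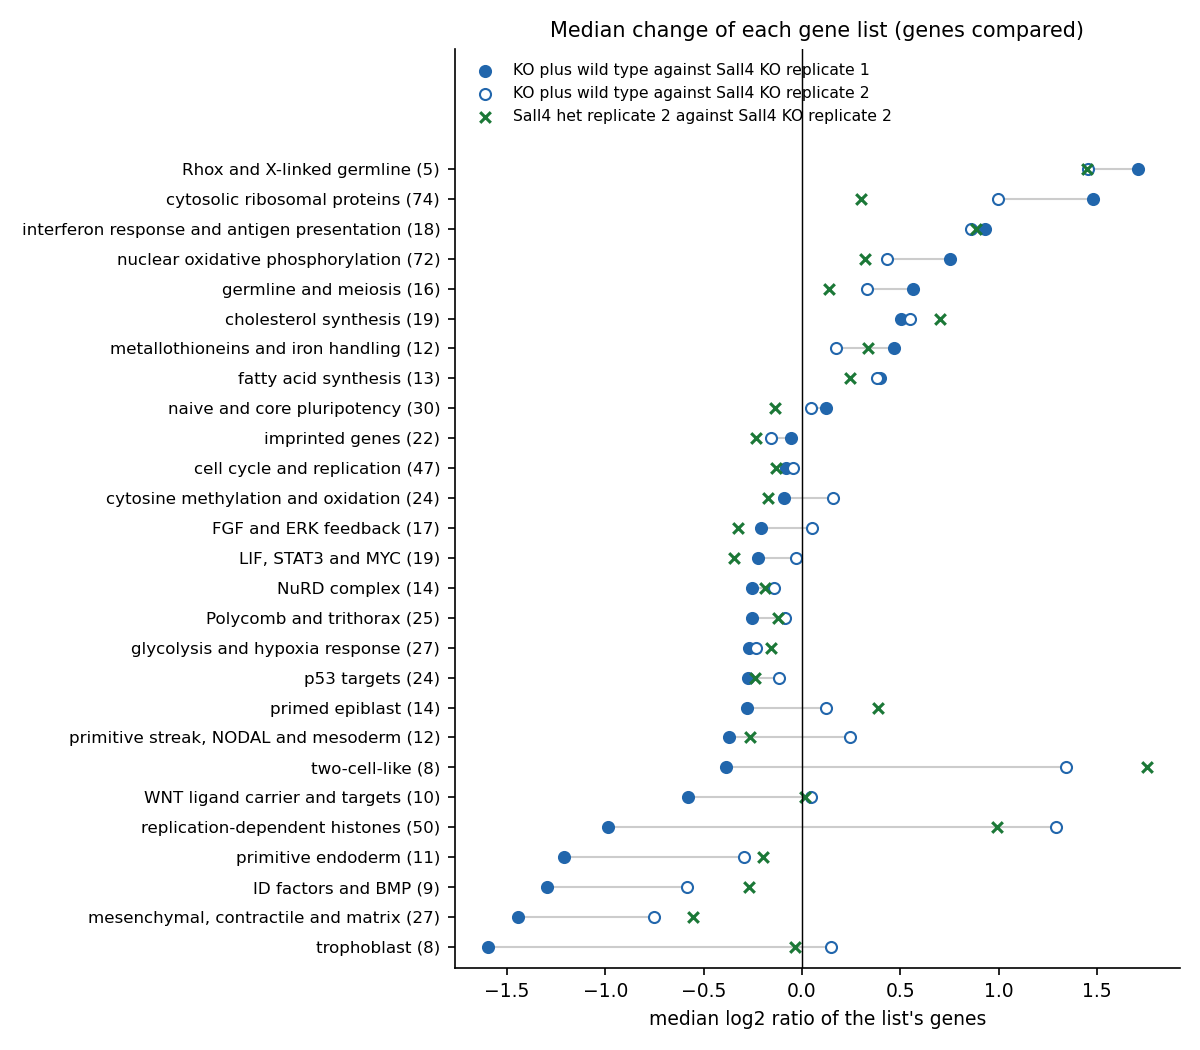
Median log2 ratio of each gene list with at least 5 genes compared (number in brackets), KO plus wild type against Sall4 KO replicate 1 (filled) and replicate 2 (open), and Sall4 het replicate 2 against Sall4 KO replicate 2 (cross), which shares no library with the filled points but shares 1 with the open ones. The Rhox, interferon and cholesterol lists lie above 0 for all 3 marks and the mesenchymal and ID lists below 0, while the histone and two-cell-like lists change side with the KO library.

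Among chromatin genes, 14 NuRD members had 1 2-fold higher and 3 lower, with a median of -0.25 (-0.14 against replicate 2). Chd3, a NuRD helicase, was at 3.02 FPKM against 16.2 and 10.8, and Mbd2, a methyl-CpG binding subunit, at 4.58 against 19.2 and 20.1 in KO, 13.04 and 9.35 in het and 6.99 and 9.65 in KO plus mutant. For Mbd2 the KO libraries were highest and KO plus wild type lowest. Cdk2ap1 was the higher one, at 118 against 65.8 and 65.7. The list of cytosine methylation and oxidation genes had 1 of 24 higher and 4 lower, with a median of -0.090 that is 0.015 under upper quartile scaling and 0.16 against replicate 2. Dnmt3a, the de novo methyltransferase, was at 10.8 against 58.1 and 27.4 and is separated, with KO plus mutant at 8.27 and 25.5. Ung, uracil DNA glycosylase, was at 73.8 against 39.1 and 45.2 in KO, 62.8 and 55.0 in het and 68.9 and 62.6 in KO plus mutant. For Ung both KO values were below all others. Polycomb and trithorax genes had 4 of 25 lower and none higher, with a median of -0.25 (-0.085 against replicate 2).

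Imprinted genes moved both ways, with 4 of 22 higher and 3 lower and a median of -0.057 that is 0.048 under upper quartile scaling and -0.16 against replicate 2. Igf2, a fetal growth factor, was at 7.11 FPKM against 45.2 and 16.1 in KO, 15.7 and 2.79 in het and 9.49 and 2.11 in KO plus mutant. Nnat, a small membrane protein of the brain, was at 24.8 against 6.58 and 9.69 in KO, 17.6 and 19.0025 in het and 0.799 and 1.15 in KO plus mutant. Mest, a hydrolase of the same imprinted class, was at 35.0 against 12.3 in Sall4 KO replicate 1, with het replicate 1 at 41.5 and KO plus mutant at 1.86 and 0.498. Nnat and Mest were thus high with wild-type and low with mutant SALL4A in these libraries, with the KO values between. Slc38a4, an amino acid transporter, was at 38.9 against 14.9 and 13.8 in KO, 59.8 and 39.9 in het and 33.8 and 33.7 in KO plus mutant, with both KO values below all others. Nnat, Mest and Slc38a4 are known in mice to be expressed mainly from the paternal allele, and a level from a gene table does not tell the alleles apart.

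Signalling and stress lists were near or below the level of all genes. WNT genes had 1 of 10 higher and 4 lower (median -0.58, and 0.047 against replicate 2), FGF and ERK feedback genes 1 of 17 higher and 3 lower (-0.21, and 0.052), and LIF, STAT3 and MYC genes 1 of 19 higher and 4 lower (-0.22, and -0.029). Myc was at 3.97 FPKM against 17.2 and 10.9, and Dusp6, a phosphatase that ERK signalling induces, at 16.7 against 53.01 and 39.0. The p53 targets had 5 of 24 lower and none higher (-0.27, and -0.12 against replicate 2), glycolysis and hypoxia genes 3 of 27 higher and 3 lower (-0.27, and -0.23), and cell cycle genes 5 of 47 lower and none higher (-0.078, with -0.046 against replicate 2 and 0.026 under upper quartile scaling). Perp, a p53 target of cell adhesion, was at 9.75 against 33.7 and 35.1 in KO, 11.1 and 12.4 in het and 17.9 and 14.5 in KO plus mutant. Perp thus had both KO values above all others. Primed epiblast genes had 1 of 14 higher and 4 lower (-0.28, and 0.12 against replicate 2), with Zic2 at 20.4 against 9.21 and 5.50. Streak, NODAL and mesoderm genes had 1 of 12 higher and 1 lower (-0.37, and 0.25), and 3 neuroectoderm genes were compared, with 1 lower (0.062, -0.14 on values as deposited, and 0.27 against replicate 2). No Hox gene and no Y-linked gene reached the minimum of 5 in either library.

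Histone and two-cell-like lists changed side with the KO library. Replication-dependent histone genes had 24 of 50 members 2-fold lower against Sall4 KO replicate 1 and a median of -0.99, but 25 of 37 members 2-fold higher against replicate 2 and a median of 1.29. The descriptions of the replicate 2 libraries name mRNA sequencing and those of replicate 1 do not name a selection, and the part of this was not tested. Two-cell-like genes had 2 of 8 members lower and a median of -0.39, but 5 of 8 higher and a median of 1.34 against replicate 2. Zscan4c, of a multicopy cluster of the two-cell-like state, was at 12.95 FPKM in KO plus wild type, 18.8 and 3.35 in KO, 7.30 and 16.02 in het and 34.0 and 2.31 in KO plus mutant, so values within a label spread as widely as between labels. Ribosomal and mitochondrial lists had medians above 0 against each KO library. Cytosolic ribosomal protein genes had 53 of 74 members higher, 5 lower and a median of 1.48, and 35 of the 74 are separated genes. Without those the median was 1.00, and against replicate 2 it was 0.999, with 37 of 74 higher and 4 lower. Rpl3 was at 2118 FPKM in KO plus wild type and 2357 in KO plus mutant replicate 1, against 453 and 519 in the longer tables of Sall4 KO and Sall4 het replicate 1. Nuclear oxidative phosphorylation genes had 25 of 72 higher and 3 lower, with 12 of the 72 separated and a median of 0.75 (0.43 against replicate 2). Metallothionein and iron genes had 3 of 12 higher and none lower (median 0.47, and 0.18 against replicate 2), among them Ftl1, which is separated, and Mt4, at 5.70 against 0.896 and 0.635 in KO and 10.7 and 25.2 in het.

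Comparisons that share no library with the pair gave ratios for the same genes. Sall4 het replicate 2 against Sall4 KO replicate 2 uses tables of 1 gene model and 1 unit. Over 7452 genes of the pair that are not separated, Pearson's r between the ratio of the pair and that of het to KO was 0.36 and Spearman's rho 0.35, across genes, which are not independent replicates. All 7452 ratios share the same 4 libraries, and both KO libraries cite 1 sample record. Of 511 genes 2-fold higher in KO plus wild type, 131 (25.6%) were also 2-fold higher in het and 8 (1.57%) lower, where 4.04% and 4.7% of all 7452 genes were. Of 693 genes 2-fold lower, 120 (17.3%) were 2-fold lower in het and 28 (4.04%) higher. At both ends the share in the same direction was above that over all genes, and Dppa3 (5.38), Xlr3a (4.27), Usp26 (3.42), Dpp4 (-2.80) and Igf2 (-2.12) were among the genes with large ratios of het to KO.

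KO plus mutant replicate 2 against Sall4 KO replicate 2 also shares no library with the pair, though it shares Sall4 KO replicate 2 with the comparison just given. Over 7282 genes r was 0.33 and rho 0.29. Of 484 genes higher in the pair, 91 (18.8%) were 2-fold higher in KO plus mutant and 6 (1.24%) lower, where 2.75% and 1.95% of all were. Of 674 lower genes, 63 (9.35%) were lower and 24 (3.56%) higher. Pbld1 (3.71), Slc7a14 (3.12) and Lcmt2 (2.44) had large ratios of mutant to KO there, and Id1 (-2.02), Id2 (-2.02) and Vim (-2.49) low ones.

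**Figure D4:**
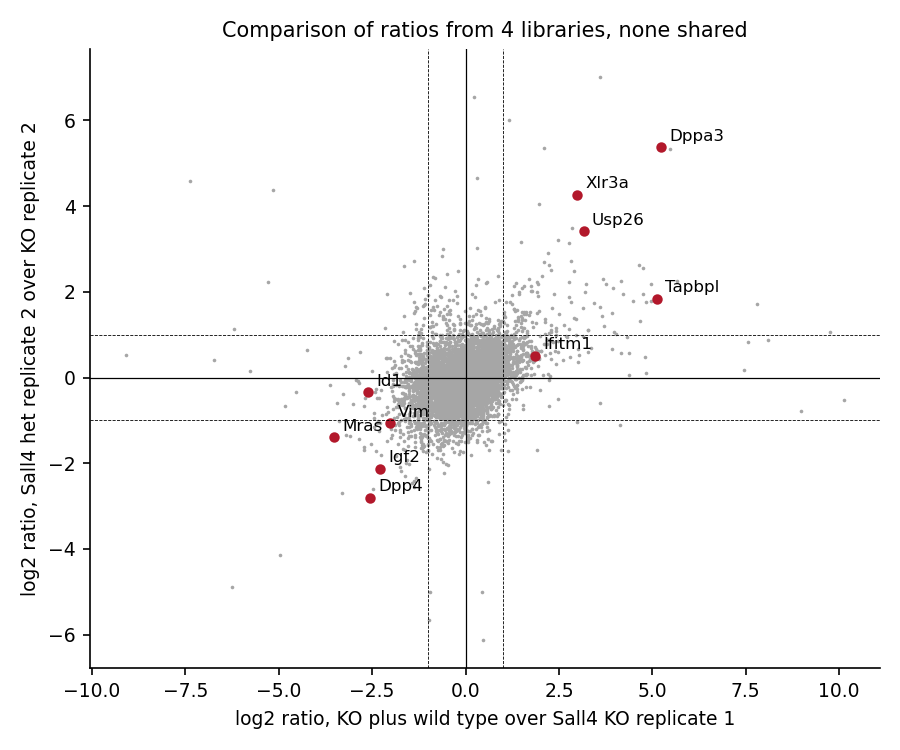
Log2 ratio of KO plus wild type over Sall4 KO replicate 1 (horizontal) against that of Sall4 het replicate 2 over Sall4 KO replicate 2 (vertical) for 7452 genes not separated by kind of table, 1 point a gene, dashed lines at 2-fold. Dppa3, Xlr3a and Usp26 lie at the upper right and Dpp4, Igf2 and Mras at the lower left, while most genes lie within 2-fold on both axes.

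Limma over 7 libraries (2 each of KO plus mutant, Sall4 KO and Sall4 het, and the 1 of KO plus wild type, with a term for the unit) called 0 of 11709 genes (0%) between KO plus wild type and Sall4 KO at an adjusted p under 0.05. At an unadjusted p under 0.05 there were 1175 genes, 587 higher and 588 lower, and the smallest adjusted p was 0.0572. The lone library was assumed to vary like the others. The genes with the clearest change by this fit among those named were Slc7a14 (4.47 ± 0.34, SE), Trim43b (3.47 ± 0.28), Cyp2e1 (3.62 ± 0.30) and Tnfsf10 (3.62 ± 0.30), each with an adjusted p of 0.163. The count rested on the KO plus mutant pair. The fit has no term for gene model, and genes separated by kind of table were kept in it. KO plus wild type and KO plus mutant replicate 1 have the shorter tables, Sall4 KO and Sall4 het replicate 1 the longer. The fitted change thus carries any gene-model difference. Trim43b, for one, runs from 88979461 to 88987673 in the table of KO plus wild type. In that of Sall4 KO replicate 1 it runs from 88494493 to 89023388. Without a KO plus mutant library, the residual spread comes from Sall4 KO and Sall4 het alone. The part of gene models in the counts that follow was not tested. Without KO plus mutant replicate 1, limma called 1088 genes, 414 higher and 674 lower, and without replicate 2 it called 1062, 434 higher and 628 lower, on 1 residual degree of freedom in place of 2.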

How the data were processed

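RNA sequencing of mouse ES cells was used as expression tables of 11 libraries, per the labels. The authors deposited FPKM for 8 of them and RPKM for the 3 replicate 2 libraries, per the file headers. The submitters' processing notes name TopHat, Bowtie 0.12.7, SAMtools, MACS 1.4.2 and mm9, without saying which of these made which table. Depth is unknown, since whole reads were not recovered from these units, so no counting interval is given. In Sall4 KO and Sall4 het replicate 1, 1225 unnamed entries were left out of each table, and 18 shifted symbols of KO plus mutant replicate 2 were set by identifier.

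Entries were summed per symbol, scaled by median ratio, taken where both libraries were at 1 or more (factors 0.921 for KO plus wild type and 1.09 for Sall4 KO replicate 1), and compared as log2(value + 1) where 1 library reached 5, with 2-fold as the limit. The 43 genes listed at 0 in 1 kind of table only were left out. The fit used limma 3.58.1 under R 4.3.3, with lmFit and a trended eBayes, on 4 groups, with a term for unit and Benjamini-Hochberg adjustment at 0.05, over genes that reached 1 in 2 or more libraries. Ratios came from Python 3.11.15, pandas 2.3.3 and numpy 2.4.6, with figures by matplotlib 3.10.9. Both steps were tested on simulated data. Up to 4 members of each of 31 lists with the largest ratios were to be named, then the 12 largest ratios per direction among named genes not set aside or separated, and Dppa3. For lists given briefly, fewer are named, and members outside the rule are named after their values were seen. The members and lists were chosen with earlier results of these data known. Alternatives covered scaling, pseudocount, minimum, the KO library and each library left out.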

Additional observations from a re-analysis of the deposited data

How the results depend on the processing

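No paired analysis was possible because KO plus wild type has 1 library, so the groups compared share fewer than 2 replicate numbers. The count of higher genes stayed within 1.5 times of 708 under 11 alternatives of scaling, pseudocount, minimum, genes kept and KO library, and was 363 against both KO libraries and 396 over genes with the same locus, both chosen after seeing the data. The count of lower genes stayed within 1.5 times of 1160 under 9, and was 717 with a pseudocount of 5, 645 with a minimum of 20, 613 against both KO libraries and 475 over genes with the same locus. The limma count ranged from 0 to 1088 when each library was left out, was 0 without the unit term and with a minimum of 5 in at least 2 libraries, 1 with a pseudocount of 0.1 and 116 on the 3 libraries of the 2 labels. Of 158 named genes with a value against Sall4 KO replicate 2, 9 changed sign from a 2-fold ratio, to 0.40 for Mast1, 0.20 for Hist1h2aa, 0.26 for Hist1h2ac, 0.18 for Hist2h2ab, 0.59 for Hist2h2ac, 0.60 for Krt18, 0.12 for Krt8, 1.502 for Zscan4b and 1.39 for Zscan4e. The medians of 3 lists with a size of 0.5 or more did so too, to 0.15 for trophoblast, 0.047 for WNT and 1.29 for histones. The causes were not tested. None of the 159 named genes at 2-fold changed sign without scaling, with upper quartile scaling or with a pseudocount of 0.1. Pearson's r with het over KO was 0.28 with separated genes kept and 0.36 with a minimum of 20. At a minimum of 20 the pairs of 1 label were 2-fold apart at 22.0% (Sall4 KO), 31.2% (Sall4 het) and 21.9% (KO plus mutant) of genes. Depth is unknown, so low levels carry the least weight.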
